A study of Mus musculus with 28 samples.

Results

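The genes described are 10 markers of Kupffer cells, the resident macrophages of the liver: *Clec4f*, *Vsig4*, *Timd4*, *Cd5l*, *Marco*, *Folr2*, *Cd163*, *Id3*, *Nr1h3*, and *Spic*. They were chosen by symbol and not by a threshold on these data, but with earlier results of these data known. All 10 were found among the 49585 features of the count table, and all 10 were among the 21583 genes tested. RNA-seq counts of whole liver came from 28 C57BL/6JOlaHsd mice, 7 in each of 4 groups: WT males, WT females, SIRT6-tg males, and SIRT6-tg females. Mice were 5 to 7 months old by the labels, fed chow, and fasted briefly before sacrifice. WT were littermates housed with the SIRT6-tg mice, which all descended from 1 transgenic line overexpressing SIRT6, a chromatin-bound deacetylase of the sirtuin family. The sources used here do not name the promoter of the transgene in these mice. The study used these libraries to look for liver pathways related to gluconeogenesis in SIRT6-tg mice of both sexes, and the same groups are compared below for the Kupffer cell genes.

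Kupffer cells lie in the liver sinusoids, where they clear microbes, dying cells, aged red blood cells and modified lipoproteins from portal blood. Their identity is kept by signals of the neighbouring stellate, endothelial and hepatocyte cells, among them BMP, TGF-β, Notch ligands and CSF1. These act with transcription factors that include PU.1, LXRα, ID3 and SpiC. Most of the 10 genes are surface receptors. CLEC4F is a C-type lectin, VSIG4 a complement receptor for C3 fragments, TIMD4 a phosphatidylserine receptor for dying cells, MARCO a scavenger receptor for bacteria, CD163 the receptor for haemoglobin-haptoglobin complexes, and FOLR2 a folate receptor. *Cd5l* encodes a secreted protein, AIM. *Id3*, *Nr1h3* (LXRα), and *Spic* encode transcriptional regulators, and *Id3* and *Nr1h3* are also expressed in other liver cells.

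The genes lie on different chromosomes except *Clec4f* and *Cd163*, which are both on chromosome 6. *Marco* (ENSMUSG00000026390.7) spans chr1:120474538-120505024 on the minus strand of GRCm38, *Vsig4* (ENSMUSG00000044206.3) chrX:96247203-96293438 on the minus strand, *Cd5l* (ENSMUSG00000015854.7) chr3:87357881-87371073 on the plus strand, and *Timd4* (ENSMUSG00000055546.6) chr11:46810800-46844332 on the plus strand. *Clec4f* (ENSMUSG00000014542.3) spans chr6:83644542-83656187 on the minus strand, *Cd163* (ENSMUSG00000008845.9) chr6:124304656-124330527 on the plus strand, and *Folr2* (ENSMUSG00000032725.10) chr7:101839988-101857194 on the minus strand. *Id3* (ENSMUSG00000007872.3) spans chr4:136143497-136145755 on the plus strand, *Nr1h3* (ENSMUSG00000002108.10) chr2:91184061-91202834 on the minus strand, and *Spic* (ENSMUSG00000004359.16) chr10:88674772-88685015 on the minus strand. All 10 are annotated as protein coding. Of the 1546 exonic bases of *Folr2*, 975 are shared with the antisense gene *Gm10602*, which had 525 counts over all libraries, so the *Folr2* count is uncertain. *Nr1h3* shares 34 exonic bases with *Gm13783*.

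Because PU.1 and SpiC both bind the PU box, the 250 bases before the start of each gene were searched for its core GAGGAA on either strand. The sequences are those of RefSeq on GRCm38.p6, in which all 10 genes matched 12 promoters. Starts are those of RefSeq and can differ from the gene spans given above. The windows of *Id3*, *Nr1h3*, and *Spic* lie inside those spans, as does a *Folr2* window. The windows of *Clec4f* and of the other *Folr2* start lie inside in part. The PU box core was present in 4 of 10 genes, *Vsig4*, *Cd5l*, *Marco*, and *Id3*, and in 23.3% of 32851 promoters of 27025 genes. TGCTGA, a core sequence bound by MAF proteins, was present on either strand in 5 of 10 genes, *Clec4f*, *Timd4*, *Cd5l*, *Folr2*, and *Spic*, and in 16.1% of all promoters. For both motifs the members are counted as genes and the background as promoters, so the figures are not strictly alike. The motifs overlapped in 0 of the members' promoters. The promoters of *Marco* (chr1:120505025-120505274, minus strand), *Vsig4* (chrX:96293439-96293688, minus strand), *Cd5l* (chr3:87357631-87357880, plus strand), and *Timd4* (chr11:46810549-46810798, plus strand) are printed because these genes carried clear differences between groups and differ in the PU box core. That core is absent from *Spic*, *Folr2*, and *Clec4f*, which also fell in SIRT6-tg males, and present in *Id3*, which did not fall. A link between the core and the fall was not tested. Each is written 5′ to 3′ on the strand of the gene and ends at the base before its start, with PU box cores, in either orientation, in capitals.
Marco: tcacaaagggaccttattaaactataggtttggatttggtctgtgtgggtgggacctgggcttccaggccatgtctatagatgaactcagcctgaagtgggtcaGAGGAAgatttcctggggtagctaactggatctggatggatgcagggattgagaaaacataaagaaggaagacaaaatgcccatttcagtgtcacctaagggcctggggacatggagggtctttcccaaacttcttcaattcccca
Vsig4: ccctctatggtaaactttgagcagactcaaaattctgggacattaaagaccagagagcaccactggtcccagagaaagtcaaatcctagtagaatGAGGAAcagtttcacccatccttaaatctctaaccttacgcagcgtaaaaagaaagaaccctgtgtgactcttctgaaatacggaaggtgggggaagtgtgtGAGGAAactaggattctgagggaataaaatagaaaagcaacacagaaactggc
Cd5l: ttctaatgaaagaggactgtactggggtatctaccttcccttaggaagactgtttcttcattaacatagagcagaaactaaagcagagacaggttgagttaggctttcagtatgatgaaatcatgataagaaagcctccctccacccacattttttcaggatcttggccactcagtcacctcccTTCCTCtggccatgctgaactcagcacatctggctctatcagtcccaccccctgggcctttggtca
Timd4: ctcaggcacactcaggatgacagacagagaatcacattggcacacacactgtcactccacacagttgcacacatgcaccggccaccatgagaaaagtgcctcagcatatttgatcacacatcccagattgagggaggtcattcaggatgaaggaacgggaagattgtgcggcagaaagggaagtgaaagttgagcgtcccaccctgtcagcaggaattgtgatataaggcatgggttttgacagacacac
The core lies 146 bases before the start in *Marco* and 155 and 53 bases before it in *Vsig4*. In *Cd5l* it lies 66 bases before the start, as the reverse complement. The *Timd4* window has none. These matches describe letters in a window, and binding was not measured.

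Total counts lay between 18758863 and 35393069 per library. *Sirt6* was between 1.69 and 3.24 CPM (counts scaled to a library total of 1000000) in male WT and between 198.1 and 358.3 CPM in male SIRT6-tg. In females it was between 1.80 and 6.22 CPM in WT and between 16.4 and 50.2 CPM in SIRT6-tg, so the ranges of WT and SIRT6-tg did not overlap in either sex. Hepatocyte markers summed to between 97030 and 189100 CPM, the highest total of the cell type lists, as in whole liver. For the Kupffer cell genes, 4 libraries were at the edge of their group for 8 of the 10 genes. Male WT replicate 1 and female SIRT6-tg replicate 6 were the lowest, and male SIRT6-tg replicate 6 and female SIRT6-tg replicate 1 the highest. In these bulk samples, fewer Kupffer cells and less RNA per Kupffer cell cannot be told apart.

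Levels, per kilobase of exon, were compared first among the genes. In male WT the order was *Cd5l* (129.7 ± 51.6 CPM per kb, SD, n = 7), *Clec4f* (73.5 ± 21), *Marco* (46.5 ± 23.6), *Nr1h3* (35.2 ± 4.32), *Vsig4* (33.7 ± 12.2), *Id3* (31.9 ± 11.8), *Timd4* (8.26 ± 3.10), *Cd163* (5.64 ± 1.91), *Folr2* (2.43 ± 1.07), and *Spic* (1.18 ± 0.525). Neighbours in this order were farther apart than their SDs only between *Id3* and *Timd4* and between *Cd163* and *Folr2*, while the mean ± SD ranges of the other neighbours overlapped. The *Folr2* level was divided by all its exonic bases, many of them shared with antisense *Gm10602*. Its place in this order and its distance from *Cd163* are therefore uncertain. In male SIRT6-tg, *Cd5l* (56.3 CPM per kb) and *Clec4f* (50.2) were still the highest, while *Marco*, at 4.76 CPM per kb, came after *Nr1h3* (41.6), *Id3* (39.5), and *Vsig4* (17.5). *Spic*, at 0.442 CPM per kb, was the lowest.

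In males, 7 of the 10 Kupffer cell genes fell in SIRT6-tg livers and 0 rose (edgeR quasi-likelihood F-test, adjusted p under 0.05). Of all genes tested, 11.0% fell and 9.68% rose. *Marco*, *Spic*, *Cd5l*, *Timd4*, *Vsig4*, *Folr2*, and *Clec4f* were the genes that fell, by 9.80-fold for *Marco* and by 1.47-fold for *Clec4f*. *Cd163*, *Id3*, and *Nr1h3* did not pass the test. The median log2 fold change was -0.92 over the 10 genes and 0.06 over all genes. *Marco* was the 1 gene of 10 whose SIRT6-tg samples all lay below every WT sample, against 4.37% of all genes. Without male WT replicate 1, this held for 5 of 10, namely *Vsig4*, *Timd4*, *Cd5l*, *Marco*, and *Spic*, against 5.31% of all genes. That library was singled out as the lowest of its group for 8 of these 10 genes. Leaving it out therefore raises the lowest WT value of those genes by choice, and no conclusion is drawn from the rise from 1 to 5. Without that library the same 7 genes fell, with log2 fold changes from -0.67 for *Clec4f* (adjusted p = 0.0141) to -3.49 for *Marco* (adjusted p = 3.79e-07), and without male SIRT6-tg replicate 6 from -0.66 (adjusted p = 0.019) to -3.44 (adjusted p = 4.79e-06). Both libraries were singled out as extremes for these genes. Leaving either out widens the fall by choice, so no conclusion is drawn from the calls kept. Only 5 members fell without male WT replicate 4 or 7, where 3301 and 3802 of all genes were called. The count was also 5 without male SIRT6-tg replicate 1 or 4, with 3862 and 3540 of all genes called.

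**Figure D1:**
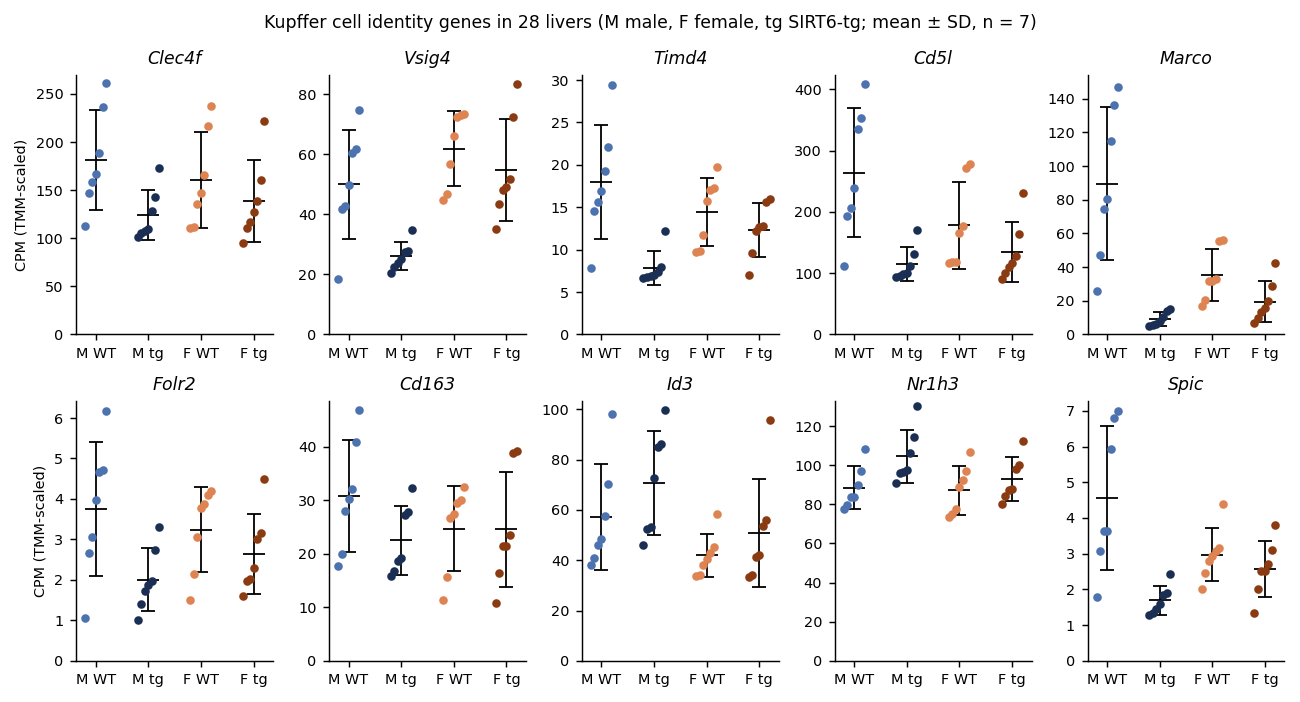
CPM (y axis, from 0, scaled by TMM) of each of the 10 genes in each liver (points), by group on the x axis (M male, F female, tg SIRT6-tg), with the mean and SD of 7 mice as bars. The male SIRT6-tg points of *Marco* lie between 4.93 and 15.4 CPM, all below the lowest male WT point at 25.8 CPM.

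*Marco* differed most. In male WT its lowest, median and highest levels were 25.8, 80.6 and 147.2 CPM, and in male SIRT6-tg 4.93, 8.0 and 15.4 CPM. All 7 transgenic males were below all 7 WT males. The difference was -3.29 on the log2 scale (SE 0.43, adjusted p = 2.46e-06). In female WT *Marco* lay at 17.1, 31.9 and 56.1 CPM, and in female SIRT6-tg at 6.75, 15.8 and 42.2 CPM. Here 4 of 7 transgenic females were below every WT female and the groups overlapped. The female difference was -0.85 (SE 0.39, unadjusted p = 0.0411, adjusted p = 0.845), and it did not pass the test.

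*Spic*, which encodes an ETS factor of iron-recycling macrophages, had the lowest level per kilobase. In CPM, its lowest, median and highest levels were 1.80, 3.63 and 7.00 CPM in male WT and 1.28, 1.60 and 2.44 CPM in male SIRT6-tg. Of the 7 transgenic males, 4 were below every WT male, and all 7 were below the WT median. It fell by 1.42 on the log2 scale (SE 0.25, adjusted p = 7.41e-05). In females the levels were 2.02, 2.93 and 4.38 CPM in WT and 1.35, 2.52 and 3.80 CPM in SIRT6-tg. The female groups overlapped, with a difference of -0.21 (SE 0.24, adjusted p = 1).

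*Timd4* ranged in male WT from 7.80 to 29.5 CPM, with a median of 16.9, and in male SIRT6-tg from 6.63 to 12.2 CPM, with a median of 7.03. Of the 7 transgenic males, 5 lay below every WT male. It fell by 1.20 on the log2 scale (SE 0.22, adjusted p = 0.000188). *Cd5l*, the secreted macrophage protein, ranged in male WT from 112.0 to 408.3 CPM around 239.4, and in male SIRT6-tg from 94.3 to 170.6 CPM around 100.5. Again 5 of 7 transgenic males were below every WT male. *Cd5l* fell by 1.21 (SE 0.26, adjusted p = 0.00104), a 2.31-fold difference.

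*Vsig4* ranged in male WT from 18.4 to 74.7 CPM, with a median of 49.8, and in male SIRT6-tg from 20.6 to 34.9 CPM, with a median of 25.0. None of the transgenic males was below the lowest WT male, which was replicate 1, and all 7 were below the WT median. It fell by 0.94 on the log2 scale (SE 0.21, adjusted p = 0.00166). *Clec4f*, the lectin found on Kupffer cells alone in mouse liver, ranged in male WT from 112.6 to 261.8 CPM around 167.0, and in male SIRT6-tg from 100.9 to 172.8 CPM around 109.8. Of the transgenic males, 4 of 7 were below every WT male. *Clec4f* fell by 0.55 (SE 0.20, adjusted p = 0.0444). Its adjusted p rose to between 0.0586 and 0.134 when male WT replicate 4, 6 or 7 or male SIRT6-tg replicate 1, 2, 3, 4 or 5 was left out, and was 0.0694 without the filter on low counts and 0.0673 with the replicate number as a block.

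*Folr2* was low, from 1.06 to 6.17 CPM in male WT and from 1.01 to 3.30 CPM in male SIRT6-tg. The medians were 3.96 and 1.87 CPM and the groups overlapped. It fell by 0.90 on the log2 scale (SE 0.30, adjusted p = 0.0298). The call was lost without male WT replicate 2, 4 or 7 or male SIRT6-tg replicate 1, 4 or 7, with adjusted p between 0.051 and 0.0948, and with the replicate number as a block (adjusted p = 0.0665). *Cd163* ranged from 17.7 to 46.8 CPM in male WT and from 15.8 to 32.3 CPM in male SIRT6-tg, a difference of -0.45 (SE 0.27, 95% interval from -1.0 to 0.10, adjusted p = 0.252).

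The remaining regulators did not share this direction. *Id3* ranged from 38.1 to 98.2 CPM in male WT and from 46.0 to 99.9 CPM in male SIRT6-tg, a difference of 0.31 (SE 0.23, adjusted p = 0.362). *Nr1h3* was the least variable gene, at 77.6 to 108.3 CPM in male WT and 91.0 to 130.1 CPM in male SIRT6-tg. Here 2 of 7 transgenic males were above every WT male, and the difference was 0.24 (SE 0.10, unadjusted p = 0.0258, adjusted p = 0.0968). *Nr1h3* passed the test without male WT replicate 6 (adjusted p = 0.0365), and its difference was -0.06 when counts were scaled by library size alone.

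That scaling moved all genes together. The median over all genes in the male comparison was 0.06 with TMM and -0.22 with library size alone, and 46.8% and 4.89% of the genes called, respectively, were higher in SIRT6-tg. TMM factors lay between 1.06 and 1.17 in male WT and between 0.821 and 0.993 in male SIRT6-tg. Relative to the median of all genes, the 10 Kupffer cell genes had a median of -0.98 with TMM and -0.99 with library size alone. On this relative scale *Marco* was at -3.35 and -3.40, *Spic* at -1.48 and -1.50, *Id3* at 0.26 and 0.23, and *Nr1h3* at 0.18 and 0.16. The number of members called lower was 7 under both scalings.

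In females, 0 of 10 Kupffer cell genes passed the test by edgeR, and 0 by DESeq2. Of all genes tested, 0.0278% passed in either direction by edgeR. At an unadjusted p under 0.05 there was 1 member by either tool, *Marco*. The median of the 10 genes was -0.21 and that of all genes 0.00. *Cd5l* had the next largest difference, with levels from 117.4 to 278.5 CPM in WT and from 90.5 to 231.7 CPM in SIRT6-tg. It was lower by 0.41 on the log2 scale (SE 0.26, 95% interval from -0.93 to 0.12). Here 4 of 7 transgenic females were below every WT female. *Clec4f* ranged from 110.4 to 237.3 CPM in female WT and from 95.5 to 222.1 CPM in female SIRT6-tg, *Vsig4* from 44.6 to 73.2 CPM and from 35.1 to 83.3 CPM, and *Timd4* from 9.76 to 19.7 CPM and from 7.04 to 16.0 CPM. All 3 overlapped over most of their range. For *Clec4f* the female difference was -0.21 (95% interval from -0.61 to 0.19), for *Vsig4* -0.18 (-0.61 to 0.26), and for *Timd4* -0.23 (-0.68 to 0.21). *Folr2* lay between 1.51 and 4.19 CPM in female WT and between 1.59 and 4.48 CPM in female SIRT6-tg, and *Cd163* between 11.3 and 32.4 CPM and between 10.8 and 39.3 CPM. *Id3* lay between 33.8 and 58.4 CPM and between 33.5 and 95.7 CPM, and *Nr1h3* between 73.3 and 106.8 CPM and between 80.2 and 112.5 CPM. These 4 overlapped as well, with differences of -0.29 for *Folr2*, -0.01 for *Cd163*, 0.28 for *Id3*, and 0.09 for *Nr1h3*. Without female SIRT6-tg replicate 1 or replicate 6, 0 of 10 genes passed either. *Marco* was at -1.15 without the former (adjusted p = 0.549) and at -0.71 without the latter (adjusted p = 0.857). The missing calls do not show that these genes were alike in the female groups.

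**Figure D2:**
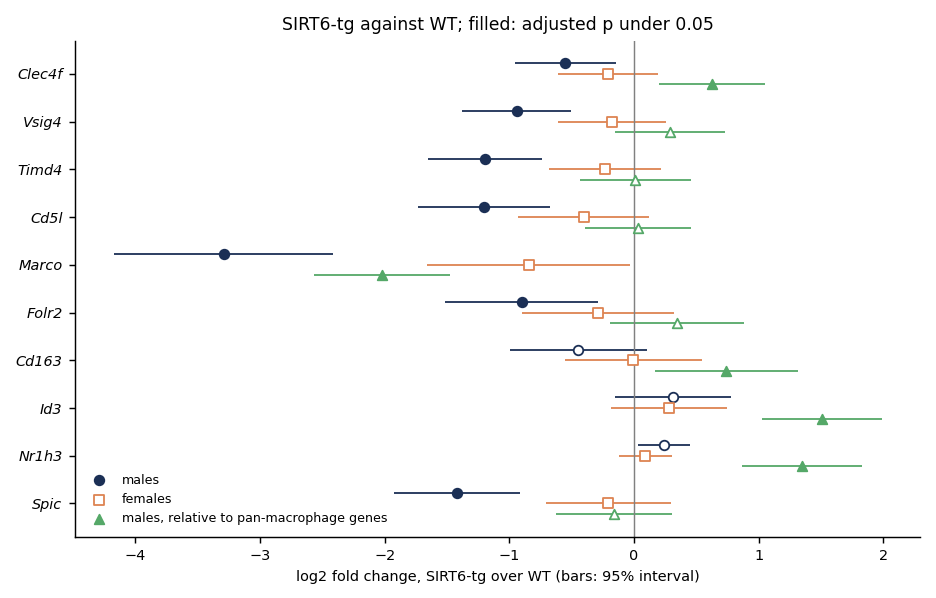
Log2 fold change of SIRT6-tg over WT (x axis) for each gene (y axis), with 95% intervals as bars: circles for males, squares for females, triangles for males relative to pan-macrophage genes. Filled symbols passed an adjusted p of 0.05. *Marco* is at -3.29 in males and at -2.02 relative to pan-macrophage genes.

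The difference between the male and the female effect was tested as an interaction. It passed for 2 of 10 genes, *Marco* and *Spic*, both more negative in males, against 3.84% of all genes in that direction and 5.05% in either. For *Marco* the male effect was lower than the female effect by 2.45 on the log2 scale (SE 0.56, adjusted p = 0.00945), and for *Spic* by 1.22 (SE 0.34, adjusted p = 0.0332). *Timd4* (-0.96, adjusted p = 0.0674), *Vsig4* (-0.77, adjusted p = 0.143), and *Cd5l* (-0.80, adjusted p = 0.223) did not pass. The *Spic* call was lost when any of 9 libraries was left out, with adjusted p between 0.0503 and 0.0687. These were male WT replicates 4, 6 and 7, male SIRT6-tg replicates 2, 3 and 4, female WT replicate 5, and female SIRT6-tg replicates 1 and 4. Without male WT replicate 1, *Timd4* (adjusted p = 0.0109) and *Vsig4* (adjusted p = 0.0163) passed as well. *Timd4* also passed without male SIRT6-tg replicate 6, female WT replicate 4 or female SIRT6-tg replicate 6, and by DESeq2 (adjusted p = 0.0248). Male WT replicate 1 and replicate 6 of both SIRT6-tg groups were extremes of their groups for 8 of the 10 genes. Leaving any of them out widens this difference by choice, so no conclusion is drawn from the calls gained that way.

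Sexes were then compared within a genotype. Among WT mice, *Marco* was higher in males by 1.35 on the log2 scale (SE 0.39, adjusted p = 0.0227), a 2.55-fold difference, and was the only one of the 10 genes that passed. Of all genes, 6.65% were higher in WT males and 12.4% differed in either direction. The *Marco* ranges of WT males and females overlapped, and the adjusted p rose to 0.0576 without male WT replicate 6, 0.0586 without male WT replicate 7 and 0.0503 without female WT replicate 5. *Spic* (0.61, adjusted p = 0.0882) and *Cd5l* (0.57, adjusted p = 0.155) were not called, but both passed without male WT replicate 1 (adjusted p = 0.0144 and 0.0443), and *Spic* also passed without female WT replicate 4 (adjusted p = 0.0371). Male WT replicate 1 was the lowest of its group for 8 of the 10 genes. Leaving it out raises the male level by choice, so no conclusion is drawn from the calls gained without it.

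Among SIRT6-tg mice, *Vsig4*, *Timd4*, and *Marco* were lower in males, 3 of 10 genes against 10.2% of all genes. *Vsig4* ranged from 20.6 to 34.9 CPM in SIRT6-tg males and from 35.1 to 83.3 CPM in SIRT6-tg females, and its groups did not overlap, which held for 1 of 10 members and 2.56% of all genes in this direction. It differed by -1.08 on the log2 scale (SE 0.21, adjusted p = 0.000521). In WT its male and female ranges overlapped, with a difference of -0.31 (adjusted p = 0.392). *Timd4* differed by -0.65 (SE 0.22, adjusted p = 0.0335) and *Marco* by -1.10 (SE 0.40, adjusted p = 0.0491). *Marco* lost its call when any of 16 libraries was left out and *Timd4* when any of 11 was, with adjusted p up to 0.14 and 0.0818. *Spic* (-0.60, adjusted p = 0.0799) passed without male WT replicate 1 (adjusted p = 0.0468) or female SIRT6-tg replicate 6 (adjusted p = 0.0343), and *Id3* (0.48, adjusted p = 0.127), higher in males, passed without female SIRT6-tg replicate 1 (adjusted p = 0.0125). Female SIRT6-tg replicates 6 and 1 were the lowest and the highest of their group for 8 of the 10 genes. No conclusion is drawn from the calls gained without them.

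Libraries within a group differed in most of these genes at once. Male WT replicates 6 and 7 were the highest of their group for 4 and 6 of the 10 genes. Over 28 libraries, with group means removed, the deviation of *Cd5l* followed the mean of the other 9 genes most closely (r = 0.945, Spearman's rho = 0.944). *Vsig4* (r = 0.925), *Clec4f* (r = 0.919), *Spic* (r = 0.903), and *Timd4* (r = 0.895) came next, then *Folr2* (r = 0.79) and *Marco* (r = 0.785). *Id3* (r = 0.619), *Cd163* (r = 0.497), and *Nr1h3* (r = 0.336) followed it least. The closest pair was *Clec4f* and *Cd5l* (r = 0.947, rho = 0.884), and the most distant *Cd163* and *Nr1h3* (r = -0.249, rho = -0.253). Among all other genes, those most like the mean of the 10 included *Fpr1* (r = 0.944, rho = 0.917), a formyl peptide receptor, *Tbxas1* (r = 0.938, rho = 0.836), thromboxane synthase, *Slc15a3* (r = 0.937, rho = 0.92), and *Slc11a1* (r = 0.935, rho = 0.906), the phagosomal metal transporter NRAMP1. These are descriptions over whole-liver libraries that differ in depth and in cell markers, and carry no p.

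Genes that macrophages of many tissues express were lower too. Of 12 pan-macrophage genes, 11 fell in male SIRT6-tg livers and 0 rose, with a median of -1.25. The lowest were *Mpeg1*, encoding perforin-2 (-1.71, adjusted p = 8.03e-07), *Ctss*, a lysosomal protease (-1.65, adjusted p = 5.71e-05), and *Aif1* (-1.37, adjusted p = 0.00136). *Mertk*, at -0.29, did not pass (adjusted p = 0.124). The summed level of these 12 genes lay between 567.5 and 1635 CPM in male WT and between 355.6 and 569.8 CPM in male SIRT6-tg. In females, 0 of 12 passed. Each library was therefore also scaled so that the mean log2 CPM of the pan-macrophage genes, none of which is a member, was equal in all libraries.

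On that scale *Marco* was the 1 member that fell in male SIRT6-tg livers (-2.02, SE 0.26, adjusted p = 2.41e-07), against 1.83% of all genes. *Clec4f* (0.63, SE 0.21, adjusted p = 0.00724), *Cd163* (0.74, SE 0.28, adjusted p = 0.0172), *Id3* (1.51, SE 0.23, adjusted p = 2.5e-06), and *Nr1h3* (1.35, SE 0.23, adjusted p = 5.63e-06) were higher relative to the pan-macrophage genes. Since 63.9% of all genes were higher on this scale and the median of all genes was 1.14, the 4 higher members do not stand out from other genes of the liver. *Timd4* was at 0.01 (95% interval from -0.43 to 0.45), *Cd5l* at 0.03 (-0.40 to 0.46), and *Spic* at -0.16 (-0.63 to 0.30). *Vsig4* was at 0.29 and *Folr2* at 0.35, and neither passed. Without male WT replicate 1, and without male SIRT6-tg replicate 6, 1 member was lower and 4 were higher on this scale, with *Marco* at -2.12 without the former (adjusted p = 9.1e-08). The *Cd163* call was lost without male SIRT6-tg replicate 3 (adjusted p = 0.0517) and with *C1qa*, *C1qb*, and *C1qc* alone as the reference (adjusted p = 0.0665). In females 0 of 10 members passed on this scale by edgeR or DESeq2, against 0.0463% of all genes. By edgeR 2 members had an unadjusted p under 0.05, *Marco* (-0.61, unadjusted p = 0.019, adjusted p = 0.679) and *Id3* (0.47, unadjusted p = 0.0473, adjusted p = 0.679).

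**Figure D3:**
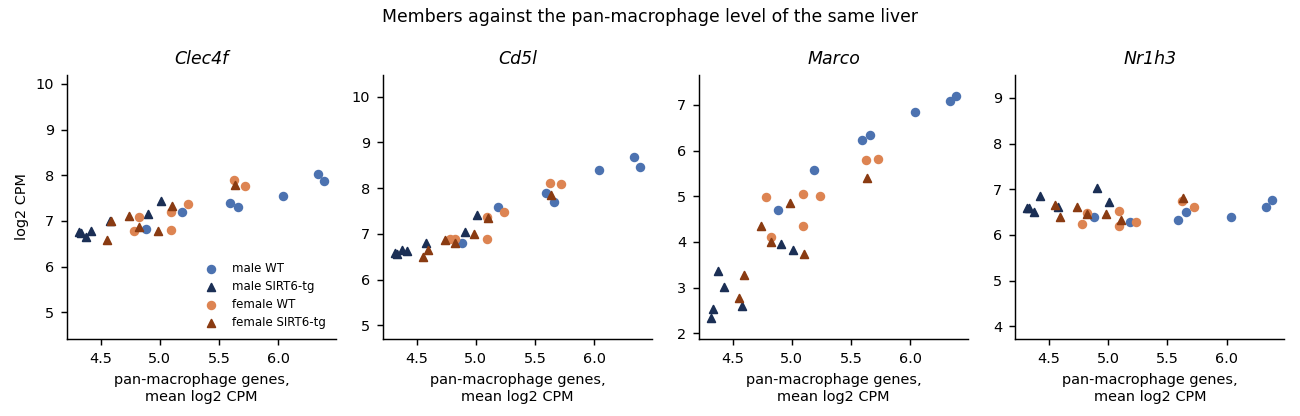
Log2 CPM of *Clec4f*, *Cd5l*, *Marco*, and *Nr1h3* (y axes, all spanning the same number of log2 units) against the mean log2 CPM of 12 pan-macrophage genes in the same liver (x axis), 1 point per mouse, circles for WT and triangles for SIRT6-tg. *Cd5l* of all 4 groups lies along 1 band, *Marco* of male SIRT6-tg lies at the bottom left, and *Nr1h3* is nearly flat.

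Other gene groups of the Kupffer cell and its niche were described by counts in males, where the share of all genes was 11.0% lower and 9.68% higher. Of 12 other genes listed as enriched in Kupffer cells, 5 fell and 1 rose, with a median of -0.57. The adhesion molecule gene *Vcam1* (-2.09, SE 0.24, adjusted p = 2.07e-07), the neurturin receptor gene *Gfra2* (-1.87, SE 0.29, adjusted p = 1.78e-05), and *Il18bp*, encoding a decoy receptor of IL-18 (-1.44, SE 0.21, adjusted p = 8.05e-06), were the lowest. *Kcna2* (-1.07, adjusted p = 0.000404) and *Slc16a9* (-0.91, adjusted p = 0.000948) were the others that fell. *Paqr9* rose (0.74, adjusted p = 0.00306), but not with library size alone as the scaling (adjusted p = 0.0713). Over all libraries *Paqr9* lay between 166 and 818 CPM, where *Clec4f* lay between 95.5 and 262 CPM. Whole liver does not show which cells the RNA of *Paqr9*, or of the genes of this list that fell, came from. Of 10 regulators of the macrophage lineage, 5 fell and 0 rose, with a median of -0.36, among them *Runx1* (-1.82, adjusted p = 2e-07), *Irf8* (-1.74, adjusted p = 2.79e-08), and *Spi1*, which encodes PU.1 (-1.41, adjusted p = 0.000174). The others were *Zeb2* (-0.68, adjusted p = 2.8e-05) and *Tfec* (-0.59, adjusted p = 0.0193).

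Of 15 niche signals and receptors, 6 fell and 0 rose, with a median of -0.30. *Acvrl1*, the receptor of BMP9 and BMP10 (-1.06, adjusted p = 3.65e-05), *Csf1r*, the receptor of CSF1 (-1.0, adjusted p = 0.00057), and *Csf1* (-0.75, adjusted p = 0.000101) were the lowest. *Gdf2*, *Tgfb1*, and *Tgfbr2* also fell. Of 11 LXR target genes, 2 fell, the cholesterol exporter gene *Abcg1* (-1.08, adjusted p = 5.46e-06) and *Mylip* (-0.44, adjusted p = 0.0256, and 0.0564 without male SIRT6-tg replicate 4), and 1 rose, *Srebf1* (0.66, adjusted p = 0.00227), which encodes the lipogenic factor SREBP1. *Srebf1* was not called with library size alone (adjusted p = 0.096). The median of the LXR targets was 0.34, and hepatocytes also express many of them.

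Markers of other cells moved in the same comparison, and their part in the results above was not tested. Of 10 genes of monocytes and recruited macrophages, 8 fell, with a median of -2.16, among them *Gpnmb* (-5.42, SE 0.55, adjusted p = 4.94e-08), *Itgax* (-3.09, SE 0.26, adjusted p = 5.16e-09), and *Chil3* (-2.63, SE 0.57, adjusted p = 0.000969). Over all libraries *Gpnmb* lay between 0.0381 and 7.75 CPM and *Chil3* between 0.0346 and 1 CPM. Their lowest values are near the floor, so the size of these 2 changes is uncertain. The summed level of the 10 genes lay between 60.1 and 148.8 CPM in male WT and between 44.5 and 75.2 CPM in male SIRT6-tg. This sum weighs *Spp1* and *Cd9* most, at 22.2 to 105 and 12.8 to 35.7 CPM over all libraries. No other gene of the list exceeded 13.6 CPM. All 8 T-cell markers fell, with a median of -2.38, among them *Cd8a* (-3.67, adjusted p = 5.85e-09), *Cd8b1* (-3.53, adjusted p = 7.31e-07), and *Cd3e* (-2.57, adjusted p = 5.92e-08). Their sum lay between 15.8 and 48.9 CPM in male WT, 5.12 and 7.39 CPM in male SIRT6-tg, 5.65 and 18.5 CPM in female WT, and 5.91 and 13.0 CPM in female SIRT6-tg. Of 6 B-cell markers 4 fell, among them *Cd22* (-1.36, adjusted p = 2.29e-06), *Ms4a1* (-1.07, adjusted p = 0.0157, and 0.0513 without male WT replicate 1), and *Cd79a* (-0.82, adjusted p = 0.0156), with sums from 12.1 to 19.4 CPM in male WT and from 6.41 to 11.2 CPM in male SIRT6-tg. Of 5 neutrophil markers tested of 6, *Csf3r* alone fell (-1.21, adjusted p = 0.000433), and *Ly6g* had a count of 0 in 22 libraries.

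Cells that line the niche, and hepatocytes, came next. Of 8 stellate cell markers 5 fell, with a median of -0.57, *Pdgfrb* (-0.72, adjusted p = 2.1e-05), *Des* (-0.70, adjusted p = 0.0116), *Lrat* (-0.68, adjusted p = 0.00456), *Dcn* (-0.46, adjusted p = 0.0234), and *Reln* (-0.38, adjusted p = 0.0379), and their sum lay between 357.7 and 607.0 CPM in male WT and between 302.4 and 413.1 CPM in male SIRT6-tg. Of 8 sinusoidal endothelial markers 1 fell, *Pecam1* (-0.37, adjusted p = 0.0496), with sums from 285.7 to 383.3 CPM and from 271.3 to 344.0 CPM. Of 8 hepatocyte markers 0 fell and 3 rose, *Serpina1c* (0.86, adjusted p = 0.00206), *Cyp2e1* (0.36, adjusted p = 0.0355), and *Alb* (0.35, adjusted p = 0.0204), with sums from 97030 to 135500 CPM in male WT and from 122400 to 168600 CPM in male SIRT6-tg. With library size alone, *Cyp2e1* and *Alb* were not called, nor were they with each sex fitted separately (adjusted p = 0.21 and 0.118). *Cyp2e1* was not called with RLE size factors (adjusted p = 0.0705), and *Pecam1* neither without the filter on low counts (adjusted p = 0.0681) nor with the replicate number as a block (adjusted p = 0.0594). With 1 library left out, *Pecam1* lost its call in 9 fits, *Cyp2e1* in 13 and *Alb* in 4. Leaving out male WT replicate 4 or 7 or male SIRT6-tg replicate 4 did so for all 3 of these genes. In females 0 genes of any of these lists passed.

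**Figure D4:**
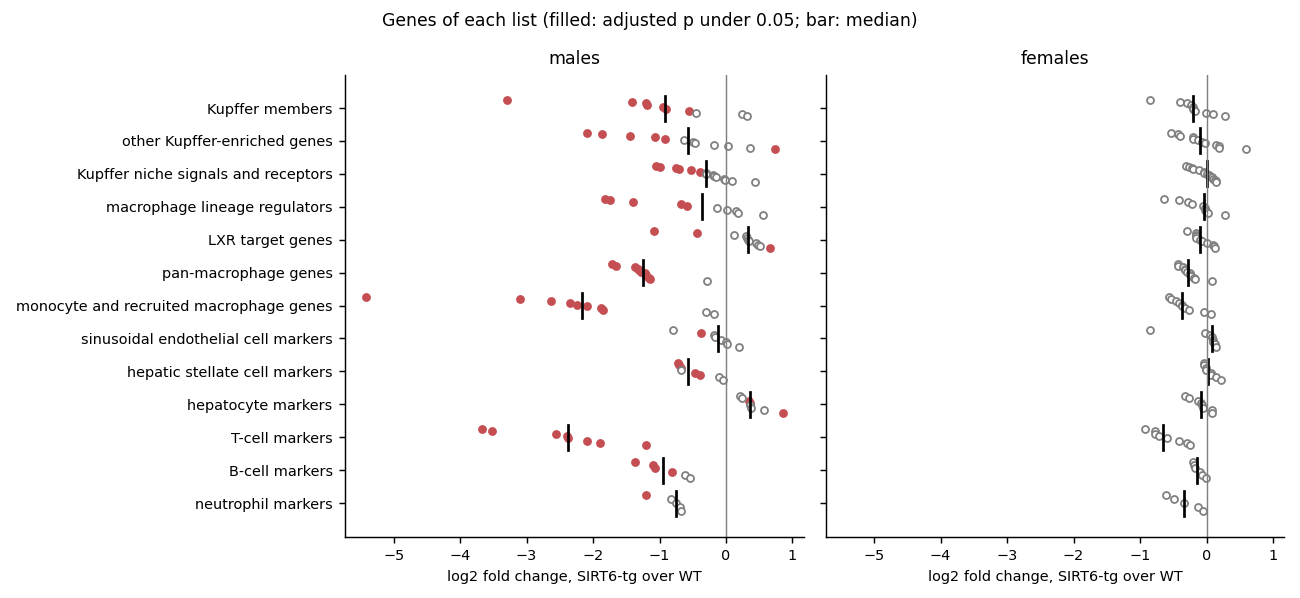
Log2 fold change of SIRT6-tg over WT (x axis) of every tested gene (points) of the 10 members and of 12 other lists (y axis), in males on the left and females on the right. Filled points passed an adjusted p of 0.05 and black bars are medians. The male medians run from -2.38 for T-cell markers to 0.36 for hepatocyte markers, with the Kupffer cell genes at -0.92.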

How the data were processed

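Whole livers of 28 mice were sequenced, 1 library per mouse, in 4 groups of 7. The authors deposited raw counts per gene, not normalized, made from single-end reads of an NEBNext Ultra library kit aligned to mm10 with STAR 2.5.0a and counted with HTSeq on Gencode genes. The strand setting of the counting is not given in the sources used here. Columns were matched to samples by name, and 0 columns were unmapped. Symbols and coordinates came from a Gencode annotation of GRCm38, the same build, with a symbol for 49326 of 49585 features.

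Genes with a mean of at least 0.5 counts after scaling by size factors were tested (21583). After TMM scaling, a quasi-likelihood F-test was run in edgeR 4.0.16 (R 4.3.3) in 1 fit of all libraries, with Benjamini-Hochberg adjustment over all genes and a threshold of 0.05. Standard errors are those implied by the F statistic, and 95% intervals use 24 residual degrees of freedom. CPM values are scaled by TMM, and log2 CPM used a prior count of 2. DESeq2 1.42.0, other scalings, filters and fits, a replicate block, and each library left out were alternatives. The code was tested on simulated data. No pair of libraries of a group agreed within sampling noise (chi-square per gene at least 12.2). Counts were lowest for *Folr2* and *Spic* among the members, with at least 19 and 28 counts in every library. The spread between mice of a group was largest for *Marco* (SD of log2 deviations 0.74). Each p-value weighs a difference against the spread between mice.

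Named genes are the 10 members, *Sirt6*, up to 3 genes called at each end of each other list in males, the 5 genes most like the members, and every gene of a count of 5 or fewer. Some genes that this rule names are not reported here. The rule names the genes with the lowest and highest fold changes, and *Mertk*, *Gdf2*, *Tgfb1*, *Tgfbr2*, *Spp1*, *Cd9*, and *Ly6g* were named after their values were seen. The members and lists were chosen with earlier results of these data known. The labels repeat the numbers 1 to 7 in every group without saying that a number pairs mice. Same-numbered libraries had correlations of their deviations between -0.345 and 0.328. Differently numbered libraries were not compared, so this range cannot show whether the numbers pair mice. The numbers were not taken as pairs, and the labels give no litter or cage.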

Additional observations from a re-analysis of the deposited data

Results flagged for a closer look

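The highest value stood far from the other 6 in 2 of 40 sets of 7 values, each a gene in a group, where the gap divided by the range exceeded 0.568. Chance flags about 1 in 20 sets. *Timd4* in male SIRT6-tg was 12.2 CPM in replicate 6, with a group median of 7.03 CPM and a gap of 0.763 of the range. *Id3* in female SIRT6-tg was 95.7 CPM in replicate 1, with a group median of 42.2 CPM and a gap of 0.637 of the range. The same libraries were the highest of their group for 8 of the 10 Kupffer cell genes.

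The effect of the transgene differed between males and females in the interaction test for *Marco* (-2.45 on the log2 scale, adjusted p = 0.00945) and *Spic* (-1.22, adjusted p = 0.0332). *Sirt6* itself differed in the same test, since the male groups were 6.68 apart on the log2 scale and the female groups 3.39 apart (adjusted p = 6.96e-06). The part of this difference in the results for *Marco* and *Spic* was not tested.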

How the results depend on the processing

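No result changed sign among calls under any alternative. The 7 members that fell in males were 7 under each other scaling, filter and tool except 6 without the filter on low counts and 5 with the replicate block, and 5 to 7 with 1 library left out. Of all genes, 4467 were called in males, 3686 without the filter, and 3301 to 4810 with 1 library left out. Under library size alone the sex difference of the effect passed for 4 members, not 2, and the male against female difference in WT for 4, not 1. Without the filter, the male against female difference in SIRT6-tg passed for 1, not 3, and for 4121 of all genes, not 4988. With 1 library left out these counts ran from 1 to 4 for the sex difference of the effect, from 0 to 3 in WT and from 1 to 4 in SIRT6-tg. Over all genes the same fits called 795 to 1362, 2029 to 2979 and 3841 to 5609 genes. The cause of these changes was not tested. With the replicate number as a block, although the numbers were not shown to pair the mice, the members called in either direction were 5 in males and 0 in females. They were 2 for the sex difference, 1 in WT, 3 in SIRT6-tg and 5 and 0 relative to pan-macrophage genes. Of the 21583 genes tested, the same fit called 4209 in males, 6 in females, 989 for the sex difference, 2474 in WT and 4821 in SIRT6-tg. Relative to pan-macrophage genes it called 14026 genes in males and 9 in females. Of all genes, 6 passed in females by edgeR, 44 by DESeq2 and 2 with the sexes fitted apart, and 3 to 16 with 1 library left out. On the pan-macrophage scale 10 passed in females by edgeR and 22 by DESeq2. Library size alone raised the genes called for the sex difference from 1089 to 1863, of which 23.9% and 1.4% were more positive, and for WT males against females from 2669 to 4212, of which 53.8% and 86.8% were higher. In SIRT6-tg 55.9% and 39% were higher. Among the members, *Folr2* and *Spic* had the lowest counts, at a few CPM.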
